A study of Mus musculus with 21 samples.

Results

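Whole testes of fetal mice were compared at gestation day 16 (gd16) with the 2 stages on either side of it, gd14 and gd18, to find transcripts that were higher or lower at gd16 than at both. The arrays were chosen by the labelled stage alone: 3 of gd16, 3 of gd14 and 3 of gd18, which make 9 of the 21 arrays of the series. All 9 held RNA of wild-type CD-1 males, an outbred stock, with no treatment and no transgene. The labels place gd14 at Theiler stage 22, gd16 at stage 24 and gd18 at stage 26, and list the samples of these 3 stages as not pooled. The design text describes each as both testes of 1 animal, with every animal from its own dam, so the arrays of a stage are separate animals. The series as a whole ran from gd11 to postnatal day 2 (pnd2) and also held gd11 and gd12 testes, which were pooled, and a reference array of whole newborns, which was used in no test. The labels number the arrays 10, 11 and 12 at gd14, 7, 8 and 9 at gd16, and 4, 5 and 6 at gd18, and values below are given in that order.

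At these ages the testis holds cords of Sertoli cells around the germ cells, with steroid-making fetal Leydig cells, myoid cells, vessels and macrophages between the cords. Fetal Leydig cells build androgens from cholesterol, which they take from lipoproteins through the receptor SR-B1 (Scarb1) or make themselves from acetyl-CoA. The male germ cells, now called prospermatogonia, stop dividing, switch off the pluripotency genes they carried from the primordial germ cell, silence transposons with piRNAs, and lay new DNA methylation with Dnmt3a and its cofactor Dnmt3l.

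Intensities are linear values per probe set, scaled by the authors so that the trimmed mean of every array was 500. Below 71.6 a stage mean is called near background. The contrast given for each gene is the log2 difference of gd16 from the mean of the gd14 and gd18 stage means, on log2(intensity + 22.4), with the standard error (SE) of limma. It understates the change of dim genes. A gene was called a peak when its Benjamini-Hochberg adjusted p in limma was below 0.05 and its gd16 mean was above both flanking means, and a dip when gd16 was below both. Pearson correlations over all probe sets were 0.967 to 0.976 between arrays of a stage, 0.955 to 0.97 between gd16 and gd14, 0.959 to 0.97 between gd16 and gd18, and 0.942 to 0.954 between gd14 and gd18. As a check of RNA quality, the beta-actin control probes had 3' to 5' ratios of 1.3 to 1.34 at gd16 and of 1.27 to 1.4 on the flanking arrays. Markers that define the testis were well above background at gd16, among them Cyp17a1 of Leydig cells (mean 26710), Amh of Sertoli cells (1461) and Ddx4 of germ cells (3057). The duct marker Pax8 had a mean of 175 there and the nerve marker Nefl 85.1. Of striated muscle, Myog had a mean of 87.2 and Myh6 of 598, and the summed level of 16 muscle genes was 2886 to 4420 at gd16, 2292 to 2670 at gd14 and 2514 to 3899 at gd18.

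Of 14338 genes tested, 143 (0.997%) were peaks and 52 (0.363%) were dips. A further 3 genes passed the threshold with gd16 between its flanks and were not counted. The peaks had a median contrast of 0.83 and ran from 0.31 to 2.72, and the dips had a median of -0.63 and ran from -0.28 to -3.52, against a median of 0.01 over all genes. At least 2-fold changes made up 62 of the peaks and 15 of the dips. The gd16 mean was the highest of all 6 stages for 139 of the 143 peaks and the lowest for 27 of the 52 dips. The other dips were lower still at another stage. Over all 14338 genes gd16 was the highest stage in 2039 and the lowest in 1450. The call rule itself already placed gd16 outside both flanks. In 34 of the peaks at least 1 flanking mean was near background, and in 12 both were.

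The 3 gd16 arrays lay above all 6 flanking arrays in 105 of the 143 peaks and below all 6 in 26 of the 52 dips. Over all genes such a gap was seen above in 516 (3.6%) and below in 317 (2.21%). The calls were made on these same arrays and favour genes with such a gap, so it is no separate support for them. Under the stricter rule that gd16 be called against gd14 and against gd18 separately, 57 genes (0.398%) were higher and 9 (0.0628%) were lower. Taken singly, gd16 was called higher than gd14 in 5.39% of all genes and lower in 4.99%, and higher than gd18 in 3.18% and lower in 1.7%. The flanking stages themselves differed for many of the called genes: gd18 was called higher than gd14 in 27 of the peaks (14% of all genes) and lower in 35 (12.3% of all genes), and it was lower in 32 of the dips and higher in 2.

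The counts leaned on single arrays. Without gd16 replicate 7, 17 of the 143 peaks and 7 of the 52 dips were still called. The same counts were 56 and 16 without replicate 8, and 42 and 12 without replicate 9. Leaving out gd18 replicate 6 raised the counts to 284 peaks and 81 dips. Each of the other gd18 and gd14 arrays, left out in turn, gave 76 to 104 peaks and 28 to 35 dips. The contrasts moved less than the calls. Without gd16 replicate 7, 142 of the 143 peaks were still above both flanks with an unadjusted p below 0.05 in limma. Their median contrast was 0.81. These genes had been called with all arrays, so that count was largely fixed by the call. A set of 16 peaks and 3 dips was called whichever array was left out. In a limma fit of only the 9 arrays, 302 genes (2.11%) were peaks and 150 (1.05%) dips. These held 142 of the 143 peaks and 50 of the 52 dips. Each gene's contrast is the same in both fits, so this overlap is no separate support.

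**Figure D1:**
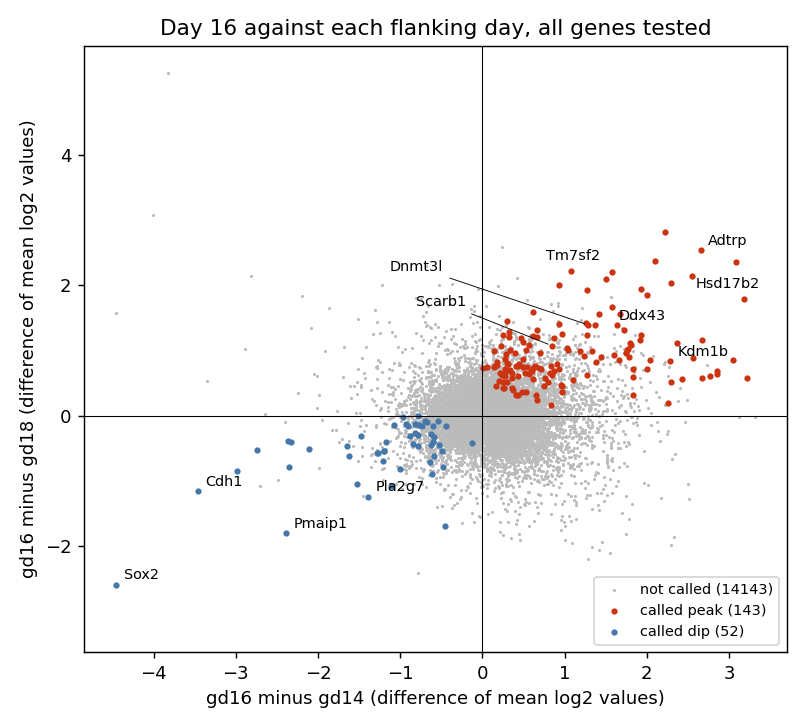
Each point is 1 of 14338 genes, placed by its log2 difference between gd16 and gd14 (horizontal axis) and between gd16 and gd18 (vertical axis). The 143 peaks (red) lie at the upper right and the 52 dips (blue) at the lower left, with Sox2 farthest out among the dips.

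Cholesterol synthesis was the process with the most peaks among the gene lists examined. Of its 18 tested enzymes 10 were peaks and 0 were dips, with a median contrast of 0.69. Over all genes tested 0.997% were peaks and 0.363% dips, and the called counts of every list are to be read against these shares. The called enzymes were Pmvk and Mvd of the mevalonate steps, farnesyl diphosphate synthase (Fdps), Lss, which closes the sterol rings, and 6 of the later steps that trim and reduce the sterol (Cyp51, Tm7sf2, Msmo1, Hsd17b7, Ebp and Sc5d). In 13 of the 18 the gd16 arrays lay above all flanking arrays (3.6% of all genes), and 15 were above both flanks at an unadjusted p below 0.05 in limma. Over all genes tested 6.52% were above both flanks at that unadjusted p and 4.49% below both, and the counts at an unadjusted p given for other lists are to be read against these shares. Since these are whole testes, more cells of a type and more RNA per cell cannot be told apart in any of these values.

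Promoters of 3 of these enzymes and of the piRNA helicase gene Tdrd9 are shown because genes of their lists are described together. Each is the RefSeq window of assembly GRCm38.p6 from 250 bases before to 50 after the gene's start, written 5′ to 3′ on the gene's strand. In the sterol genes the capitals mark CCAAT, the letters of the NF-Y box, and GGGCGG, those of the GC box, and in Tdrd9 they mark CCAAT and the E-box CACGTG, all on either strand.
Tm7sf2, chr19:6067801-6068100, minus strand: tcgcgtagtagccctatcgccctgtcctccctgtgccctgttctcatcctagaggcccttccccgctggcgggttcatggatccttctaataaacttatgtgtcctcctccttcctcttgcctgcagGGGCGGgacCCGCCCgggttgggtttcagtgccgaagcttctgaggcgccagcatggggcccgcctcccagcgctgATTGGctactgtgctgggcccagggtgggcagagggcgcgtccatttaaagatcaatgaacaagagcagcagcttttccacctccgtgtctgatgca
Cyp51, chr5:4104648-4104947, minus strand: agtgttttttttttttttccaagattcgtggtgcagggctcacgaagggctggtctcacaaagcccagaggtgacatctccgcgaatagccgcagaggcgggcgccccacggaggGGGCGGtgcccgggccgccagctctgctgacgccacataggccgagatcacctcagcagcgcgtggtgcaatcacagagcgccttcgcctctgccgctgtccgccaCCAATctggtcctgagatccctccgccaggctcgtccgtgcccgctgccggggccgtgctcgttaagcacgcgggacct
Hsd17b7, chr1:169969156-169969455, minus strand: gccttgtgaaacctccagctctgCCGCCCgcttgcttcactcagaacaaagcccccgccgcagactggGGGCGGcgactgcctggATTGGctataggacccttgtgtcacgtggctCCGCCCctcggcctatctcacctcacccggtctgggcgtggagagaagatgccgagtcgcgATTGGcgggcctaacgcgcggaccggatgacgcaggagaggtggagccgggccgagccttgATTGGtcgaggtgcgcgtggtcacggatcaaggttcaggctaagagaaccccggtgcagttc
Tdrd9, chr12:111971309-111971608, plus strand: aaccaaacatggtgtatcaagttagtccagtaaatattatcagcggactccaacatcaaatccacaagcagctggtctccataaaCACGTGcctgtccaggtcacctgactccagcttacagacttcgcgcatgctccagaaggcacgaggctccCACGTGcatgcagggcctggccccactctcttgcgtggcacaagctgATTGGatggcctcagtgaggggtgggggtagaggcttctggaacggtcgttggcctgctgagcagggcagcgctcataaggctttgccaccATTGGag
Windows were given for 9 of the 10 called sterol enzymes and for 11518 of the 14338 genes tested. CCAAT was in all 9 of them, in 15 of 15 windows of the tested sterol enzymes, in 47.5% of the windows of peaks and in 42.4% of those of all genes tested. GGGCGG was in 8 of the 9 and in 65.9% of the windows of all genes tested. The core of the sterol regulatory element, searched as CACNCCA, was in 1 of the 9 and in 21.2% of all tested, and the site of the NR5A factors, AAGGTCA, in 0 of the 9 and in 4.06%. CACGTG was in 2 of the 9, in 23.3% of the windows of peaks and in 11.3% of all tested. These shares count letters in a window and were not tested. A fixed pattern such as CACNCCA misses sterol elements with other letters, so its count is not a count of such elements.

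Tm7sf2, a sterol C14 reductase that acts just after Cyp51, had the largest contrast of the list. Its intensity was 944, 879 and 928 at gd14, 2471, 1765 and 1743 at gd16, and 360, 738 and 242 at gd18. All gd16 arrays were above all flanking arrays, with replicate 7 the highest, and gd18 was the lowest of the 3 stages. The contrast was 1.65 ± 0.27 (adjusted p = 0.00429 by limma), and gd16 was called against both gd14 (1.08) and gd18 (2.23). Without gd16 replicate 7 it was 1.49 (adjusted p = 0.0572). Lbr, which encodes the other C14 reductase of the mouse, showed no such pattern: it read 2511, 2361 and 2588 at gd14, 2316, 2346 and 2277 at gd16, and 1980, 2584 and 2505 at gd18. Its contrast was -0.06 ± 0.11 (adjusted p = 0.899 by limma), and its arrays overlapped between the stages.

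Hsd17b7, the 3-keto reductase of the pathway, was the sterol gene whose call was kept whichever array was left out. It read 1149, 906 and 875 at gd14, 1570, 1507 and 1572 at gd16, and 674, 714 and 473 at gd18. The 3 gd16 arrays lay close together and above the others, and gd18 was called lower than gd14 (-0.65 ± 0.16 on the log2 scale, adjusted p = 0.00565 by limma). Its contrast was 0.99 ± 0.14 (adjusted p = 0.00122), and all 4 of its probe sets were on the same side.

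Cyp51, the lanosterol demethylase, read 1881, 2123 and 2370 at gd14, 3060, 3045 and 2874 at gd16, and 1227, 1823 and 1116 at gd18 (0.81 ± 0.13, adjusted p = 0.00429 by limma), but 0.67 with its probe sets averaged (adjusted p = 0.0538). Msmo1, the next oxidase, read 5212, 4373 and 5019, then 9963, 6595 and 6226, then 3261, 3787 and 2544 (0.92 ± 0.15, adjusted p = 0.00429). In both genes gd16 was above every flanking array and gd18 was lowest, as it was for Tm7sf2. Lss, Mvd, Fdps and Pmvk had contrasts of 0.94 ± 0.18, 0.83 ± 0.14, 0.68 ± 0.16 and 0.62 ± 0.11, and Fdps was called in 2 of the 9 fits that left out an array and lost with median scaling (adjusted p = 0.0563) and in eBayes without a trend (0.0682). Ebp and Sc5d, which shift and introduce double bonds late in the pathway, had 0.74 ± 0.14 and 0.70 ± 0.13.

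The other 8 enzymes were not called. Dhcr7, the last reductase, had a contrast of 0.83 ± 0.22 with gd16 above all flanking arrays (adjusted p = 0.0701 by limma), and Idi1 0.55 ± 0.16 (adjusted p = 0.105). Hmgcs1, at the entry to the mevalonate pathway, read 13330, 13090 and 13640 at gd14, 18790, 17350 and 15660 at gd16, and 15020, 13700 and 8960 at gd18 (0.43 ± 0.16, adjusted p = 0.233). Nsdhl, Sqle and Mvk had 0.46, 0.35 and 0.29, while Fdft1, the squalene synthase, had 0.07. Its arrays overlapped at all 3 stages. In the 9-array fit Idi1 was called as well, which made 11 of 18, beside 2.11% of all genes.

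The arrays of a stage differed in the list as well. As the median deviation of the list from each gene's mean over the 9 arrays, on the log2 scale, gd14 stood at 0.07, -0.05 and 0.04, gd16 at 0.55, 0.39 and 0.36, and gd18 at -0.49, -0.12 and -0.68. Without gd16 replicate 7, the highest array of the list, 1 of the 10 enzymes was still called, with a median contrast of 0.63. Without gd18 replicate 6, the lowest, 11 were called, with a median of 0.62. Summed over the 18 enzymes the level was 53710 to 56750 at gd14, 67210 to 80900 at gd16 and 34740 to 51340 at gd18, so the stages did not overlap.

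**Figure D2:**
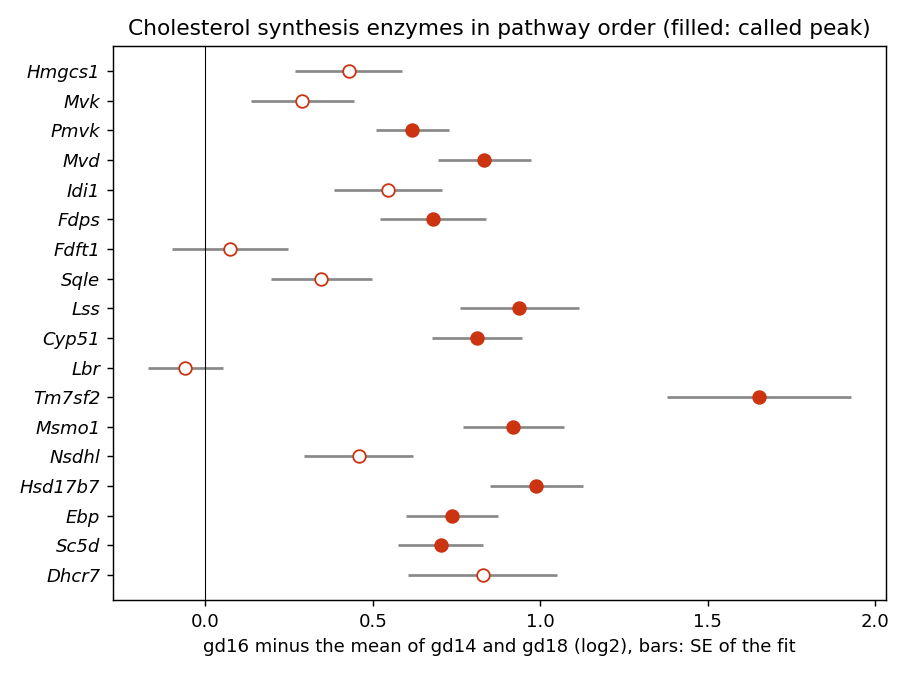
The contrast of gd16 with the mean of gd14 and gd18 (log2, horizontal axis) is shown for 18 cholesterol synthesis enzymes in pathway order, with the SE of the fit as bars and filled points for the 10 called peaks. Of the enzymes plotted, Tm7sf2 is farthest right at 1.65, and Lbr is the one enzyme left of 0.

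Beyond synthesis, the genes that take up, sense and store cholesterol gave 1 peak (0.997% of all genes) and 0 dips (0.363%) among 19. The other 18 were not called, and the median contrast was 0.03. The peak was Scarb1, the receptor for high density lipoprotein. It read 7188, 7255 and 6900 at gd14, 14630, 12310 and 11580 at gd16, and 5827, 8724 and 4341 at gd18. Every gd16 array was above every flanking array, and the gd18 arrays were spread more widely than those of gd14. The contrast was 0.96 ± 0.17 (adjusted p = 0.00755 by limma), and its 3 probe sets were all called as peaks. Without gd16 replicate 7 it was 0.86 (adjusted p = 0.0737). Insig1, which holds the sterol sensor in the endoplasmic reticulum, had 0.74 ± 0.24 (adjusted p = 0.14), Stard4, a sterol carrier, 0.40 ± 0.12 (adjusted p = 0.12), and Srebf2, the transcription factor of sterol synthesis, 0.04 ± 0.14 (adjusted p = 0.949). Abca1, the cholesterol exporter, had -0.50 ± 0.13 (adjusted p = 0.0599), with 2693 at gd14, 2796 at gd16 and 5806 at gd18 as stage means, so gd18 stood apart and gd14 and gd16 did not differ beyond their error (0.05, adjusted p = 0.875).

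Of 15 genes of fatty acid synthesis and desaturation, 3 were peaks (0.997% of all genes) and 0 were dips (0.363%), with a median contrast of 0.28. Fads2, the delta-6 desaturase, read 2508, 2624 and 3032 at gd14, 5851, 4944 and 4838 at gd16, and 3364, 3998 and 2300 at gd18 (0.83 ± 0.15, adjusted p = 0.00943 by limma). Fads1, the delta-5 desaturase beside it, had 0.59 ± 0.10 (adjusted p = 0.00429). Acss2, which makes acetyl-CoA from acetate, had 0.80 ± 0.19 (adjusted p = 0.0427). The gd16 arrays of all 3 were above every flanking array. Without gd16 replicate 7 the calls of Fads2, Fads1 and Acss2 were lost, with adjusted p of 0.0863, 0.0512 and 0.231 and contrasts of 0.74, 0.55 and 0.72. Acss2 was called in 0 of the 9 fits that left out an array (adjusted p = 0.05 to 0.231 by limma), and was also lost in 4 of the 10 other settings (0.054 to 0.061). Fasn, the fatty acid synthase, had 0.14 ± 0.11 (adjusted p = 0.69).

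Adtrp was one of the 16 peaks whose call did not depend on any 1 array. It encodes a membrane hydrolase first described as induced by androgen. Its intensity was 88.0, 32.7 and 30.8 at gd14, 475, 373 and 389 at gd16, and 12.7, 72.5 and 101 at gd18. The flanking stage means, 50.5 and 61.9, were near background, and every gd16 array was more than 3 times its highest flanking value. The contrast was 2.60 ± 0.38 (adjusted p = 0.0017 by limma), gd16 was called against gd14 and against gd18, and the call was kept in all 9 fits that left out 1 array and in the 10 other settings. At gd11, gd12 and pnd2 its means were 106, 56.2 and 37.1.

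**Figure D3:**
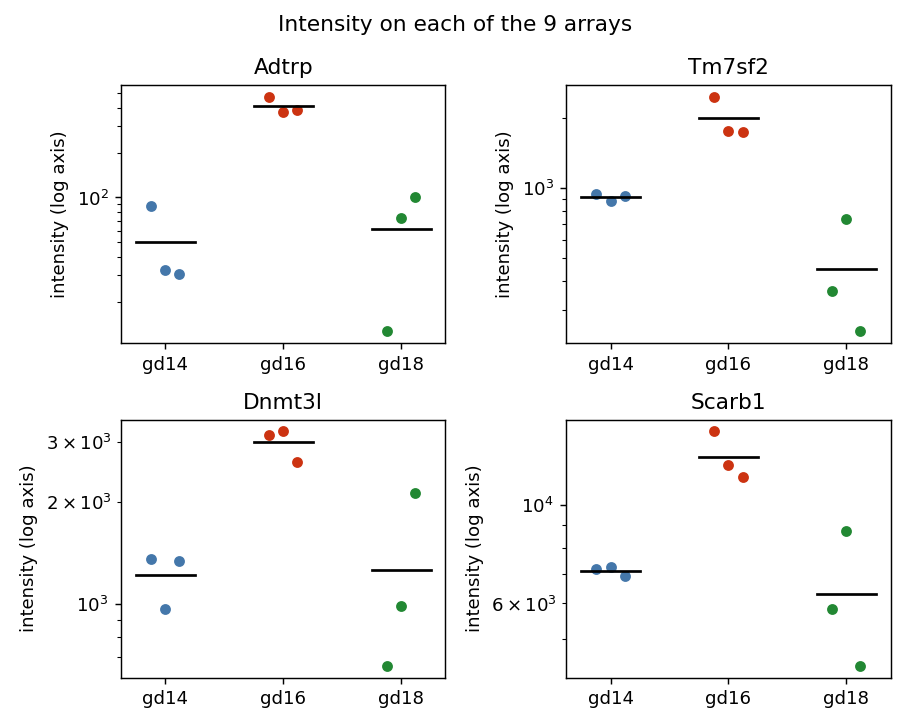
Intensity (log axis) of Adtrp, Tm7sf2, Dnmt3l and Scarb1 on each of the 9 arrays, with a point per array and a bar at the arithmetic mean of the stage. In each gene the 3 gd16 points lie above all 6 flanking points, and the gd18 points are the most widely spread for Tm7sf2, Dnmt3l and Scarb1.

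A mixed list of fetal Leydig and steroidogenic genes gave 0 peaks (0.997% of all genes) and 0 dips (0.363%) among 16 tested in the limma fit of 20 arrays. It also held genes that are not steroid enzymes, such as Agt, Vsnl1, Crhr1 and Mc2r, and the adrenal enzymes Cyp21a1 and Cyp11b1. Its counts and medians therefore do not describe steroid synthesis alone. At an unadjusted p below 0.05 in limma, 4 of the 16 were above both flanks (6.52% of all genes) and 0 below. The median contrast was 0.24, and gd16 lay above all flanking arrays in 6 (3.6% of all genes). Star, the carrier that brings cholesterol into mitochondria, read 3274, 3081 and 3855 at gd14, 8655, 5264 and 4933 at gd16, and 1574, 3390 and 1140 at gd18. Cyp11a1, the side-chain cleavage enzyme, read 6326, 6324 and 6250, then 13250, 9727 and 9976, then 4879, 6335 and 5484. Both had gd16 above every flanking array. Their contrasts were 1.28 ± 0.52 (adjusted p = 0.288 by limma) and 0.88 ± 0.45 (adjusted p = 0.442), with an SE set by the spread over all 6 stages.

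In the fit of the 9 arrays alone 4 of the 16 were peaks, beside 2.11% of all genes. They were Star (adjusted p = 0.0215 by limma), Cyp11a1 (0.00145), Cyp17a1 (0.0156) and Fdx1, the ferredoxin that feeds electrons to Cyp11a1 (0.0211). Cyp17a1, the 17-alpha-hydroxylase, read 16560, 16810 and 17990 at gd14, 29970, 24930 and 25220 at gd16, and 12030, 18320 and 8585 at gd18. The second probe set of Cyp11a1 had a contrast of -0.10 over the 20 arrays. Hsd17b3, which makes testosterone, rose from gd14 to gd18 (1.39 ± 0.28, adjusted p = 0.00126 over 20 arrays) with gd16 between them, at means of 1105, 1763 and 2999. Hsd3b1 had 0.23 ± 0.32 (adjusted p = 0.852). The median deviation of the list was -0.43 and -0.35 on gd18 replicates 4 and 6 and 0.15 on replicate 5, against 0.32, 0.30 and 0.15 at gd16. The adrenal cortex marker Cyp21a1 ran from 85.7 to 196 at gd14, 78.5 to 187 at gd16 and 101 to 189 at gd18, with full overlap, while Cyp11b1, also an adrenal enzyme, read 468, 277 and 372, then 778, 549 and 527, then 137, 424 and 137 (1.10 ± 0.56, adjusted p = 0.444). The part of adrenal tissue in these values was not tested.

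Among 16 genes of the DNA methylation machinery, 2 were peaks (0.997% of all genes) and 0 were dips (0.363%), with a median contrast of -0.01. Dnmt3l, the germ cell cofactor of de novo methylation, read 1356, 966 and 1341 at gd14, 3130, 3213 and 2615 at gd16, and 659, 989 and 2122 at gd18. The gd16 arrays were above all others, but gd18 replicate 6 was more than 2 times as high as either of its fellows. The contrast was 1.34 ± 0.29 (adjusted p = 0.025 by limma). It was called in 3 of the 9 fits that left out an array. Without gd14 replicate 11 and gd18 replicates 4 and 5 the adjusted p was 0.0585, 0.0569 and 0.0579, and without gd16 replicates 7, 8 and 9 it was 0.137, 0.115 and 0.0881, with contrasts of 1.15 to 1.43 in these 6. With the smaller pseudocount of the 10th percentile the contrast was 1.35 (adjusted p = 0.0903).

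Kdm1b, the histone H3 lysine demethylase that oocytes need to set imprints, read 767, 707 and 775 at gd14, 4293, 2944 and 4142 at gd16, and 1510, 1612 and 3697 at gd18. It overlapped with gd18, where replicate 6 was above 1 gd16 array, and not with gd14. Its contrast was 1.56 ± 0.21 (adjusted p = 0.000923 by limma). The call was kept whichever array was left out. Against gd18 alone it was not called (0.84, adjusted p = 0.0509). The methyltransferases themselves were not called: Dnmt3a, which pairs with Dnmt3l, had 0.24 ± 0.17 (adjusted p = 0.631) with stage means of 1155, 1848 and 2084, and Dnmt3b had 0.04 ± 0.14 (adjusted p = 0.955).

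Of 18 piRNA genes 1 was a peak (0.997% of all genes) and 0 were dips (0.363%). The median contrast was 0.49, and 6 genes were above both flanks at an unadjusted p below 0.05 in limma (6.52% of all genes). The peak was Tdrd9, a Tudor domain helicase of piRNA biogenesis. It read 1104, 857 and 1180 at gd14, 2693, 2825 and 3064 at gd16, and 1224, 1130 and 2537 at gd18. All gd16 arrays were above the rest, with gd18 replicate 6 close behind. The contrast was 1.17 ± 0.25 (adjusted p = 0.0226), and it was called in 3 of the 9 fits without an array, failing without any 1 of the gd16 arrays (adjusted p = 0.0906 to 0.136), gd14 replicate 11 (0.0558) or gd18 replicates 4 and 5 (0.0622 and 0.0572). Piwil4, the nuclear Piwi protein, read 929, 556 and 678, then 787, 1206 and 904, then 110, 194 and 378 (1.26 ± 0.37, adjusted p = 0.106), so it differed mainly between gd18 and the earlier stages. In the 9-array fit Piwil4, Mov10l1 and Tdrd7 were called besides Tdrd9, which made 4 of 18, beside 2.11% of all genes. Tdrd5 and Ddx4 fell from gd14 to gd18 with gd16 between them, at means of 3006, 782 and 396 (gd18 against gd14 -2.91, adjusted p = 1.16e-05) and of 4777, 3057 and 1717 (-1.51, adjusted p = 0.00221).

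On the gd18 arrays the piRNA list stood at -1.27, -0.92 and -0.16 as median deviations, with replicate 6 the highest, against 0.20, 0.45 and 0.19 at gd16 and 0.66, 0.20 and 0.42 at gd14. Replicate 6 was also the highest of the 9 arrays in 19 macrophage and leukocyte genes (1.08, against -0.72 to 0.51 on the other arrays). The summed level of those 19 genes was 2827 to 3579 at gd14, 3905 to 6051 at gd16 and 6019 to 11580 at gd18. What this array's differences contributed to the peaks was not tested beyond leaving it out. Without it 2 DNA methylation genes and 3 piRNA genes were peaks.

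Ddx43, a germ cell helicase of the DEAD box family, was among the peaks kept in all 9 fits without an array. It read 580, 471 and 527 at gd14, 2118, 2198 and 2202 at gd16, and 392, 428 and 1177 at gd18 (1.93 ± 0.28, adjusted p = 0.0017 by limma). The gd16 arrays lay within a narrow band above the others. Phf7, a histone reader of the male germ line chosen here after its values were seen, was kept as well, with 1.11 ± 0.14 (adjusted p = 0.000846) and stage means of 601, 1608 and 927.

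The pluripotency and fetal germ cell list held dips, but as a whole it was high at gd14 and overlapped between gd16 and gd18. Its median deviations were 0.90, 0.55 and 0.58 at gd14, -0.32, -0.08 and -0.16 at gd16, and -0.40, -0.30 and -0.24 at gd18. Of 29 tested genes 2 were dips (0.363% of all genes) and 0 were peaks (0.997%). The median contrast was -0.43. The gd16 mean was below both flanking means in 12 (22.9% of all genes) and above both in 5 (25.5%). At an unadjusted p under 0.05 in limma, 8 genes were below both flanks (4.49% of all genes) and 3 above both (6.52%). Sox2, a core pluripotency factor, read 1758, 1183 and 1220 at gd14, 11.4, 82.1 and 49.8 at gd16, and 405, 536 and 211 at gd18. Its gd16 mean of 47.8 was near background, and all gd16 arrays were below all others. The contrast of -3.52 ± 0.84 (adjusted p = 0.0416 by limma) was the largest of all dips. It was called in 1 of the 9 fits without an array, with adjusted p of 0.0667 to 0.233 in the other 8 and contrasts of -3.07 to -3.88. Against gd18 alone the difference was -2.59 and not called (adjusted p = 0.143), and in the 9-array fit the contrast had an adjusted p of 0.000407. The call was lost with the pseudocount of the 40th percentile (-2.77, adjusted p = 0.076) and in eBayes without a trend (adjusted p = 0.0683).

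Cdh1, E-cadherin, the adhesion molecule of early germ cells and epithelia, read 1553, 1470 and 1292 at gd14, 67.1, 168 and 113 at gd16, and 257, 287 and 275 at gd18. The gd16 arrays were lowest, and gd18 stayed far below gd14 (-2.30, adjusted p = 0.000642 by limma). The contrast was -2.31 ± 0.37 (adjusted p = 0.00357), and -2.03 without gd16 replicate 7 (adjusted p = 0.0512). Against gd18 alone it was -1.16 and not called (adjusted p = 0.138). Pou5f1, which encodes the pluripotency factor Oct4, fell from gd14 to gd16 (-1.33, adjusted p = 0.0465) and was lower again at gd18, with means of 2264, 914 and 362, so its contrast was -0.04 ± 0.36 (adjusted p = 0.985). In the 9-array fit 7 genes of the list were dips (1.05% of all genes) and 1 was a peak, Nxf2 (2.11% of all genes). The added dips were Dazl, Dppa2, Ifitm1, Lin28a and Nanog. Of these Ifitm1, Dppa2 and Dazl had gd16 below all flanking arrays, while Nanog was near background at gd16 and gd18 alike (34.0 and 38.8).

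**Figure D4:**
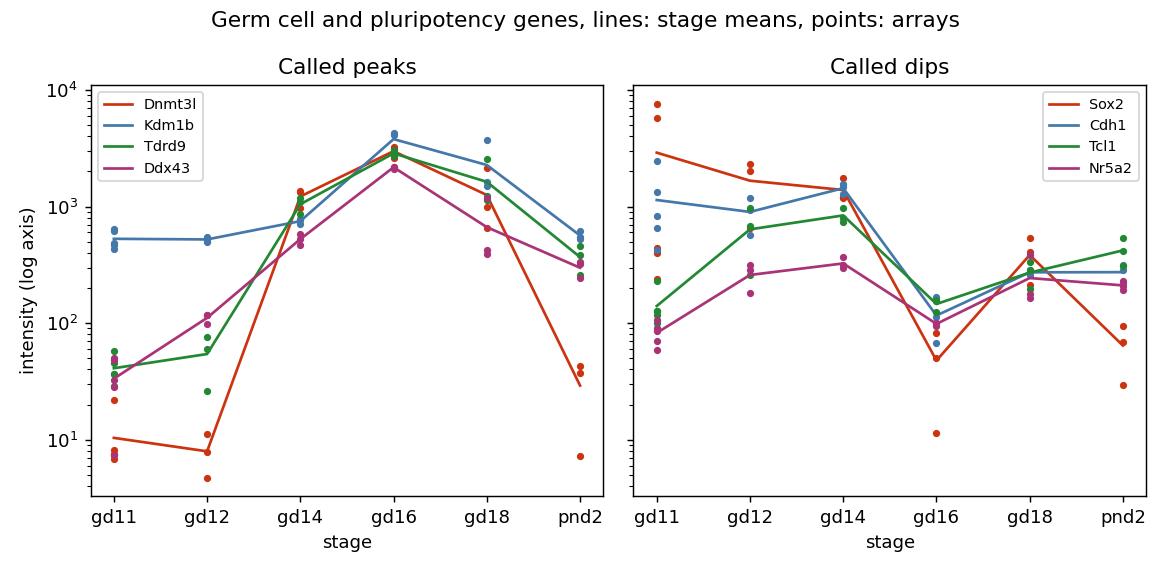
Intensity (log axis) at 6 stages for 4 called peaks (left: Dnmt3l, Kdm1b, Tdrd9, Ddx43) and 4 called dips (right: Sox2, Cdh1, Tcl1, Nr5a2), with points for arrays and lines through the arithmetic stage means. On the left all 4 lines are highest at gd16, and on the right all 4 are lower at gd16 than at gd14 and gd18.

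Further dips lay outside that list. Tcl1, a coactivator of the kinase Akt with a known role in pluripotent cells, read 974, 803 and 742 at gd14, 155, 124 and 159 at gd16, and 332, 286 and 195 at gd18 (-1.57 ± 0.30, adjusted p = 0.0111 by limma). Nr5a2, a nuclear receptor related to steroidogenic factor 1, read 367, 313 and 296, then 100, 101 and 94.3, then 386, 179 and 166 (-1.28 ± 0.23, adjusted p = 0.00655). Pmaip1, which encodes the pro-apoptotic protein Noxa, read 660, 747 and 541, then 83.9, 145 and 93.7, then 667, 533 and 205 (-2.09 ± 0.51, adjusted p = 0.045). In all 3 the gd16 arrays were below every flanking array. Tcl1 lost its call without any 1 of the gd16 arrays (adjusted p = 0.0527 to 0.0742), Nr5a2 without replicate 7 (0.0512), and Pmaip1 was called in 1 of the 9 fits (0.0667 to 0.21 in the others) and in 6 of the 10 other settings (0.0503 to 0.114 in the rest).

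Pla2g7, Ier3 and Gcnt2 were the dips called whichever array was left out. Pla2g7, the plasma hydrolase of platelet-activating factor, read 592, 541 and 669 at gd14, 203, 189 and 257 at gd16, and 626, 541 and 461 at gd18 (-1.32 ± 0.16, adjusted p = 0.000846 by limma). Ier3, an immediate early gene, read 547, 533 and 619, then 270, 215 and 267, then 565, 517 and 576 (-1.10 ± 0.17, adjusted p = 0.00271). Both had a lower level at gd16, with no overlap, while gd18 differed from gd14 by -0.15 ± 0.18 and -0.03 ± 0.20 (adjusted p = 0.607 and 0.928). Ier3 was the 1 dip among 23 immediate early and heat shock genes, whose median contrast was -0.05. Gcnt2, a branching glycosyltransferase, had -1.05 ± 0.16 (adjusted p = 0.00192), but -0.52 when its 4 probe sets were averaged (adjusted p = 0.169).

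Among the larger dips with gd16 below all other arrays were also Upp1, uridine phosphorylase (-1.31 ± 0.22), 4930550L24Rik (-1.08 ± 0.20), Rragd, a Rag GTPase of nutrient sensing (-0.95 ± 0.23), Osbpl3, an oxysterol-binding protein (-0.87 ± 0.18), Lrrfip1 (-0.87 ± 0.17) and Usp22, a histone deubiquitinase (-0.76 ± 0.16). Averaging the probe sets of a gene gave -0.56 for Rragd (adjusted p = 0.226 by limma), -0.64 for Osbpl3 (0.109) and -0.52 for Lrrfip1 (0.0732). Without gd16 replicate 7 the calls of Upp1, 4930550L24Rik, Rragd, Osbpl3 and Lrrfip1 were lost (adjusted p = 0.0572 to 0.186), and Rragd was called in 0 of the 9 fits (0.0531 to 0.19) and was lost in eBayes without a trend (0.067). Without replicate 8 Osbpl3 and Lrrfip1 were lost (0.122 and 0.0614), and without replicate 9 4930550L24Rik and Lrrfip1 (0.0569 and 0.0881). Usp22 was called in 4 of them, and without gd16 replicate 8 it was -0.55 (adjusted p = 0.172).

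Many of the largest peaks were dim on the flanking arrays, and their order depends on the pseudocount: with that of the 40th percentile Adtrp (1.96) came before Hsd17b2 (1.85) and Ddx43 (1.84). Hsd17b2, the dehydrogenase that inactivates testosterone and estradiol, read 29.9, 7.31 and 6.54 at gd14, 420, 294 and 173 at gd16, and 47.3, 6.27 and 80.2 at gd18 (2.72 ± 0.38, adjusted p = 0.00122 by limma). Togaram2, a microtubule-binding protein, read 9.91, 12.2 and 8.56, then 160, 139 and 211, then 24.96, 15.02 and 22.4 (2.35 ± 0.34, adjusted p = 0.0017). In both, gd16 stood above flanks that were near background, and the calls were kept without any 1 array. The filter asked for 3 arrays above a low level, so a gene bright only at gd16 could pass it through that stage alone. With the filter at the 60th percentile Hsd17b2, Togaram2, Dntt, Crtam, Gzmk, Svs4, Cdhr2, Bco2 and Fgg were left untested.

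Dntt, the terminal transferase of developing lymphocytes, read 9.96, 15.4 and 4.93 at gd14, 330, 222 and 265 at gd16, and 15.2, 92.6 and 117 at gd18 (2.48 ± 0.41, adjusted p = 0.00429 by limma). Crtam, a receptor of activated T and NK cells, read 195, 13.5 and 10.04, then 206, 393 and 246, then 4.08, 34.5 and 26.1 (2.52 ± 0.47, adjusted p = 0.00955). Gzmk, granzyme K, had 1.92 ± 0.35 (adjusted p = 0.00767). In Crtam gd14 replicate 10 came close to the lowest gd16 array, and in the others the groups were apart. All 3 calls were lost without gd16 replicate 7 (adjusted p = 0.0512, 0.0512 and 0.0678), and that of Crtam also without replicate 8 or 9 (0.0768 and 0.0519). The 19 macrophage and leukocyte genes had 0 peaks and 0 dips, none with an unadjusted p below 0.05 and gd16 outside its flanks, and a median contrast of -0.02.

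Svs4, a seminal vesicle secretory protein (2.23 ± 0.44), Cdhr2, a brush border cadherin (2.17 ± 0.42), Dmkn, the skin protein dermokine (1.95 ± 0.33), Ceacam10, of the carcinoembryonic antigen family (1.94 ± 0.39), 2310043M15Rik (1.90 ± 0.34), Bco2, a carotenoid-cleaving oxygenase (1.80 ± 0.31), and Fgg, the gamma chain of fibrinogen (1.74 ± 0.37), completed the 14 largest peaks without overlap. None had a gd16 mean above 367. Each lost its call without gd16 replicate 7 (adjusted p = 0.0522 to 0.163 by limma). Svs4 and Ceacam10 lost it also without replicate 8 (0.0907 and 0.0694), and Cdhr2, Ceacam10 and Fgg without replicate 9 (0.0527, 0.0989 and 0.157). Fgg lost it in addition without gd14 replicate 12 and gd18 replicate 4 (0.0507 and 0.0616). With the larger pseudocount of the 40th percentile the contrasts of Svs4, Cdhr2, Togaram2, Gzmk and Fgg were 1.43, 1.30, 1.46, 1.25 and 1.11. With that of the 10th percentile Fgg was not called (2.20, adjusted p = 0.0737).

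Metallothioneins were brighter peaks. Mt1, a zinc-binding protein gene induced by metals and glucocorticoid, read 670, 623 and 429 at gd14, 4768, 2312 and 3698 at gd16, and 1572, 1587 and 2533 at gd18 (1.73 ± 0.23, adjusted p = 0.00101 by limma). Mt2 beside it read 259, 196 and 476, then 2522, 1560 and 2863, then 1165, 1288 and 1779 (1.77 ± 0.31, adjusted p = 0.00601). In both genes gd16 was well above gd14, and 1 gd18 array overlapped with it. Against gd18 alone neither was called (0.89, adjusted p = 0.0652, and 0.68, adjusted p = 0.326). The other 13 glucocorticoid-responsive genes were not called, and the list's median was -0.06. Mt2 lost its call without gd16 replicate 7 (1.69, adjusted p = 0.0572) or replicate 9 (1.60, adjusted p = 0.0545).

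Lists of other cells had few calls, which stand beside 0.997% peaks and 0.363% dips over all genes. Their counts at an unadjusted p under 0.05 stand beside 6.52% above and 4.49% below over all genes. Sertoli genes had 0 calls among 26 (median -0.15, with 2 below and 0 above at an unadjusted p under 0.05 in limma), peritubular and smooth muscle genes 0 among 15 (0.08, 1 above), endothelial genes 0 among 18 (-0.03, 1 above), and cell division genes 0 among 30 (-0.02, 2 above). Neutrophil granule genes had a median of 0.80 with 0 calls among 9 and 2 above at an unadjusted p under 0.05. Their summed level was 463 to 1045 at gd14, 3028 to 4317 at gd16 and 1818 to 5550 at gd18, so gd16 lay within the range of gd18. Striated muscle genes had a median of 0.57 and 1 peak among 16, Myh6, a cardiac myosin, which read 97.6, 109 and 99.7, then 608, 451 and 736, then 288, 366 and 617 (1.41 ± 0.28, adjusted p = 0.0145). It lost its call without gd16 replicate 7 or 9 (adjusted p = 0.0903 and 0.135), and gd18 overlapped with gd16. Liver plasma protein genes had a median of 0.39 and 1 peak, Fgg, among 8. Their summed level was 1607 to 1978 at gd14, 2691 to 4236 at gd16 and 2215 to 3596 at gd18. Alb, a member of this list, was near background at these stages (51.9, 39.4 and 42.4). Erythroid genes had 0 calls among 11 (median 0.30, 1 above at an unadjusted p under 0.05). Their summed level was 42380 to 47740 at gd14, 6705 to 17300 at gd16 and 3915 to 10120 at gd18. What muscle, blood or liver RNA contributed to any peak was not tested.

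**Figure D5:**
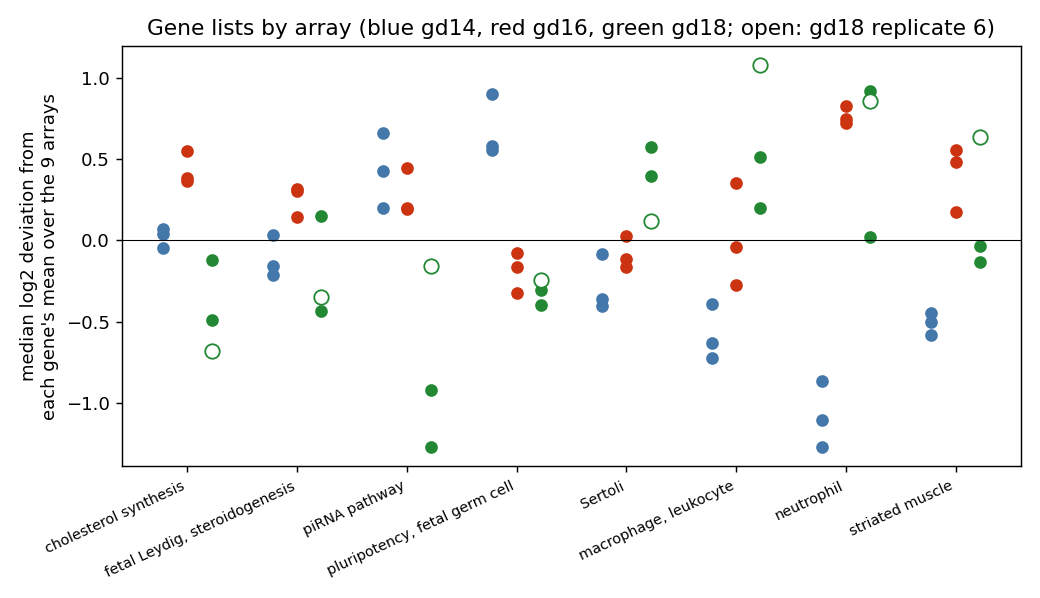
For 8 gene lists, each point is 1 array: the median over the list's genes of the log2 deviation from the gene's own mean over the 9 arrays (vertical axis), with gd14 in blue, gd16 in red, gd18 in green and gd18 replicate 6 as an open circle. The gd16 points of cholesterol synthesis (0.55, 0.39 and 0.36) lie above all points of both flanking stages, while those of the neutrophil genes lie among the gd18 points.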

How the data were processed

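RNA of whole testes was measured on Affymetrix mouse arrays of 45101 probe sets. The deposited values are linear intensities made by the authors with GCOS, per the submitters' processing notes, whose version was not given in the sources used here. The 2% trimmed mean of each of the 9 arrays came to 500 in the file. Before the log2, 22.4 was added to each intensity; this pseudocount was set at percentile 20 of all testis values. A probe set was kept if 3 or more of the 20 testis arrays read it above percentile 40 of that array, and each gene was represented by its brightest probe set, which left 14338 genes. Of all probe sets, 34945 had 1 gene symbol in the platform annotation, 932 several and 9160 none; those with several or none were named nowhere.

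limma 3.58.1 in R 4.3.3 fitted the 6 stage means to all 20 testis arrays (lmFit, eBayes with a trend; 14 residual and 4.94 prior degrees of freedom). gd16 was tested against the mean of the gd14 and gd18 means, and against each, with Benjamini-Hochberg adjustment over all genes and a threshold of 0.05. Figures were drawn with matplotlib 3.10.9. The fit was tested on simulated data. The number of arrays, 3 per stage, limits the precision.

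Named genes were the 4 given at the outset (Adtrp, Tm7sf2, Dnmt3l and Scarb1), the 14 largest peaks and 14 largest dips without overlap whose highest stage mean was above near background, up to 6 called members of each gene list by size, and members of the cholesterol, steroid, DNA methylation and piRNA lists where their role is described. Markers of the testis and of neighbouring tissues, Pou5f1, Alb and the additional germ cell genes of the 9-array fit were named from their lists, after their values were seen. The comparison, the genes and the lists were chosen with earlier results of these data known. Some listed genes were not analysed here. The alternatives were other pseudocounts, filters, scalings, call rules and array weights, the mean of a gene's probe sets, only 9 arrays, and each array left out.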

Additional observations from a re-analysis of the deposited data

How the results depend on the processing

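The number of peaks (143) and dips (52) was 302 and 150 with only the 9 arrays, 591 and 335 with array weights, 57 and 9 when both flanks had to be called, and 62 and 15 at 2-fold or more, and there were 219 peaks with the pseudocount of the 40th percentile. Genes higher than both flanks in separate tests (57) numbered 128 with 9 arrays, 211 with array weights and 86 with that pseudocount, and genes lower (9) numbered 50, 72 and, with the mean of a gene's probe sets, 4. Leaving out 1 array gave 17 to 284 peaks, 7 to 81 dips, 17 to 103 genes higher and 2 to 12 lower than both flanks. The 123 named genes include many list members that were not called in the main fit. Among them 39 lost a call they had there when gd16 replicate 7 was left out. None of the called genes among the 123 changed sign under any of these alternatives. That was largely fixed in advance, since they were called on these arrays and several alternatives leave the contrast itself unchanged. Dim genes are limited by signal over background. No paired analysis was possible because replicate numbers run on over the series, so the stages share none.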

Other observations

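In 114 of the 143 peaks the gd12 mean was below the gd14 mean, and in 116 the pnd2 mean was below the gd18 mean. Of the 52 dips, 44 had a gd12 mean and 42 a pnd2 mean above that of gd16, a mean the call had already picked to be low. None of these counts was made over all genes, so they describe the called genes alone. Among 5160 probe sets without a single gene name, 14 were peaks and 2 were dips under the same limma rule. Of 87 called genes with more than 1 probe set, 75 had all of them on the same side, which was not counted for uncalled genes.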
